A study of Homo sapiens with 24 samples.

Results

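Metallothioneins, the zinc-sensing transcription factor MTF1, and the zinc exporter SLC30A1 were followed in MB468 and MB468res-R8 cells after methionine (Met) in the medium was replaced by its precursor homocysteine (Hcy). The 8 genes MT1E, MT1F, MT1G, MT1M, MT1X, MT2A, MTF1, and SLC30A1 were taken by their symbols from the 26645 gene entries of the count table, and all 8 were found. MT1F, MT1X, MT2A, MTF1, and SLC30A1, 5 of the 8, had enough reads to be tested among the 14741 genes that passed the filter on low counts. MB468 (MDA-MB-468) is a triple negative breast cancer line that needs Met to proliferate, and MB468res-R8, written R8 here, is a single clone obtained from it by long culture with Hcy in place of Met. Both lines were kept in DMEM with dialyzed serum, vitamin B12, glutamine, cysteine, and 100 µM Met (Met+), and libraries of this state are the 0 h groups. The other groups were collected 0.5, 2, and 12 h after this medium was exchanged for one with 370 µM Hcy in place of Met (Met-Hcy+), with 3 libraries in each of the 8 groups of line and time. No library of cells given fresh Met+ medium, or kept in it for 12 h, was analysed here, so loss of Met, gain of Hcy, renewal of the medium, and time in culture cannot be told apart within a line.

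Metallothioneins are small cysteine-rich proteins that bind zinc and copper, buffer free zinc in the cell, and react with oxidants through their thiols. When free zinc rises, MTF1 binds to short metal response elements (MREs) in promoters, which raises transcription of metallothionein genes and of SLC30A1. SLC30A1, also called ZnT1, is the exporter that moves zinc out across the plasma membrane, so the set holds a sensor, a buffer, and an exit route for the same metal.

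The 6 metallothionein genes lie in a cluster on chromosome 16, where MT2A is at chr16:56608584-56609497 and MT1X at chr16:56682470-56684196 on the forward strand (GENCODE on GRCh38). MTF1 (chr1:37809574-37859592) and SLC30A1 (chr1:211571568-211579161) are both on the reverse strand of chromosome 1. Promoter sequence from RefSeq (GRCh38.p14) matched 4 of the 8 genes, MT1X, MT2A, MTF1, and SLC30A1, and the 250 bases before the annotated start were searched on both strands for the MRE cores TGCACNC and TGCGCNC. No matches overlapped. The promoters of MT2A, MT1X, and SLC30A1, the zinc-regulated genes whose RNA is described below, are shown 5′ to 3′ in the direction of transcription, with each core in capitals. They cover chr16:56608334-56608583, chr16:56682220-56682469, and, on the reverse strand, chr1:211579162-211579411.
MT2A: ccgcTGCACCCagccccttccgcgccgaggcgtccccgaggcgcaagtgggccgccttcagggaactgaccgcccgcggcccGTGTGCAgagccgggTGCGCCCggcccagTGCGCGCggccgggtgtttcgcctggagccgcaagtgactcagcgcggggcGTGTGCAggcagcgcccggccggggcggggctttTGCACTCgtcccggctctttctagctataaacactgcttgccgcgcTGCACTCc
MT1X: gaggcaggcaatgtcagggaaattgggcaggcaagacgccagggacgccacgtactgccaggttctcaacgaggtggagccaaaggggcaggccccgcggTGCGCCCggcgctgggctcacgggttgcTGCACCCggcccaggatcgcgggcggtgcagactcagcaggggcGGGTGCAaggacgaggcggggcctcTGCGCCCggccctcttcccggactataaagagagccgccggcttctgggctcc
SLC30A1: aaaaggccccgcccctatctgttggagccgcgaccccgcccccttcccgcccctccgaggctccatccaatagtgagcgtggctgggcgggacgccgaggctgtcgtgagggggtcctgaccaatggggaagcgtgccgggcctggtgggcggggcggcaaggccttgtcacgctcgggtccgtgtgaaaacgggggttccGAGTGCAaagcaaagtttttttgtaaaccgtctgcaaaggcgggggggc
The window of MT2A held 7 cores, that of MT1X held 4, and that of SLC30A1 held 1, which began 49 bases before the start. Of all 35116 promoters of this length, 24.8% held at least 1 core, 0.37% at least 4, and 0.0313% at least 7. No core was found in the window of MTF1. A match of these letters is a description of the sequence, and binding by MTF1 was not measured here.

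Library depth ran from 11713037 to 36402932 gene counts (median 20452797). ERCC spike-in RNA added to each library took up between 0.201% and 0.303% of gene and spike-in counts together. Normalized counts are counts divided by the library size after TMM scaling and multiplied by the mean scaled size of 22748285. A gene was called changed at an adjusted p under 0.05 in edgeR's quasi-likelihood test over all 14741 genes. The labels number 3 replicates per group without saying whether they were separate cultures, so p measures the spread between these libraries, which may be technical. Of the epithelial markers, all 6 were high, with group means of at least 5930 normalized counts (KRT8, KRT18, KRT19, EPCAM, CDH1, EGFR), while the leukocyte gene PTPRC had 32 counts and the fibroblast gene COL1A2 had 2 counts in all 24 libraries together. The other listed genes of non-epithelial cells were detected, with group means of 338 to 1488 normalized counts for COL1A1 and 77.6 to 209 for CD68, and 929 counts of PECAM1 and 309 of VWF in all. The receptor gene PGR had 7 counts in all, while group means were 108 to 484 normalized counts for ESR1 and 935 to 2009 for ERBB2. Replicate 2 of MB468 at 2 h held 8251 counts of the small RNA RN7SK against 44 to 357 in every other library. Fold changes of the tested metallothioneins, MTF1, and SLC30A1 were also computed without this library, and a call that changed is given below. Other genes named in MB468 at 2 h were not recomputed without it. In bulk RNA, fewer cells expressing a gene and less of its RNA per cell cannot be told apart.

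At 0.5 h, 1 of the 5 tested genes was called in MB468 and 1 in R8, both lower, when 33.9% of all genes were called in MB468 (16.4% lower) and 33.7% in R8 (16.3% lower). At 2 h, 2 were higher in MB468, where 16.3% of all genes were called and 8.88% were higher, and 2 were higher in R8, where 4.37% were called and 2.52% were higher. At 12 h, 2 were higher and 2 lower in MB468, where 70.8% of all genes were called, 36.1% higher and 34.7% lower, and 4 were lower in R8, where 61.3% were called and 31.1% were lower. The counts at 0.5 and 12 h are therefore to be read against a response that took in a large share of the transcriptome. When the spike-in totals replaced TMM as the measure of library size, the median gene of MB468 shifted by -0.20, -0.42, and -0.23 (log2) at 0.5, 2, and 12 h. With that scaling, 0 genes were called higher and 3 lower in MB468 at 2 h, and 1 higher and 3 lower at 12 h.

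**Figure D1:**
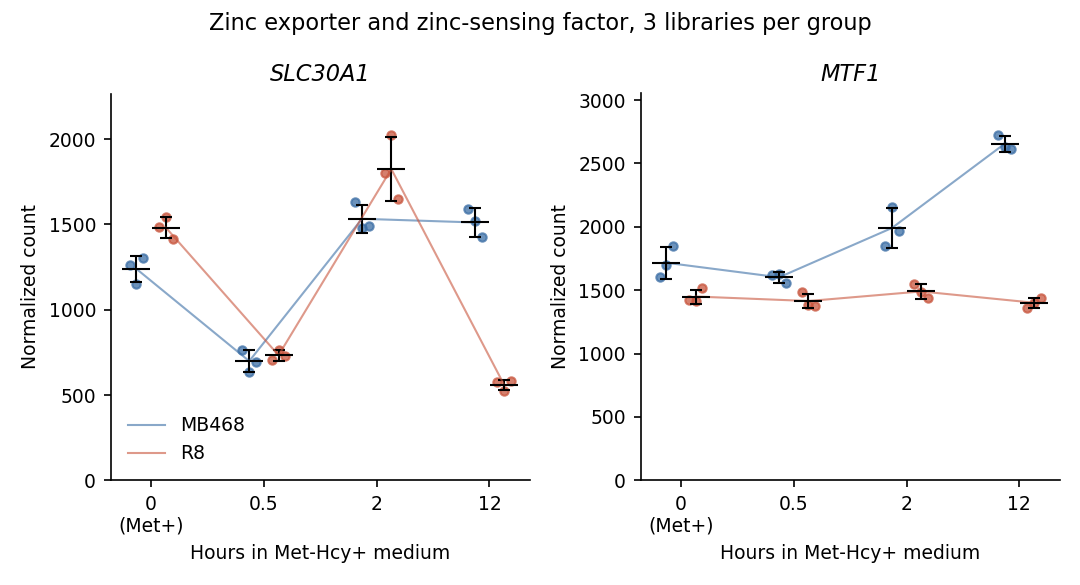
Normalized counts of SLC30A1 (left) and MTF1 (right) against hours in Met-Hcy+ medium, at evenly spaced positions, for MB468 (blue) and R8 (red). Points are libraries, black bars are the mean and SD of 3 libraries, and lines join the means. SLC30A1 fell in both lines at 0.5 h and again only in the R8 libraries at 12 h, where they read 526 to 580 against 1425 to 1590 in MB468.

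SLC30A1 showed the largest fold change of the 5 tested genes. Its RNA fell within 0.5 h in both lines, was above the Met+ level at 2 h in both, and at 12 h stayed up in MB468 but fell in R8 to the lowest level of any group. In MB468, the 3 Met+ libraries gave 1259.8, 1153, and 1304 normalized counts, and the 3 libraries at 0.5 h gave 766, 634, and 696.

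All 3 libraries at 0.5 h lay below every Met+ library, and the fitted log2 fold change was -0.81 (SE 0.0718, adjusted p = 7.23e-12, edgeR). In R8, SLC30A1 read 1486, 1543, and 1416 normalized counts at 0 h and 705, 766, and 728 at 0.5 h. These groups did not overlap either, with a log2 fold change of -1.02 (SE 0.0703, edgeR adjusted p = 7.43e-15). The fall was called under all 15 alternatives in each line, with fold changes between -1.03 and -0.75 (log2) in MB468 and between -1.05 and -0.97 in R8. Between the lines this early response differed by -0.20 (log2, R8 minus MB468, 95% interval -0.41 to -0.000887), which was not called (adjusted p = 0.38, edgeR).

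At 2 h the SLC30A1 values were 1629, 1479, and 1491 normalized counts in MB468 and 1802, 2024, and 1647 in R8. Every library at 2 h was above every Met+ library of its line, and above every library at 0.5 h. The log2 fold change against 0 h was 0.31 in both lines (SE 0.0681, adjusted p = 0.00078 in MB468 and SE 0.0650, adjusted p = 0.00183 in R8, edgeR). This rise depended on scaling. With spike-in totals as library sizes it turned to -0.11 in MB468 (adjusted p = 0.452) and was 0.26 in R8 but not called (adjusted p = 1), by edgeR. In R8 it was 0.22 (adjusted p = 0.102, edgeR) without replicate 2 at 2 h, the library with the highest SLC30A1 value of all 24, and the adjusted p ranged from 8.32e-06 to 1 over the 16 alternatives.

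At 12 h the lines parted. SLC30A1 read 1590.1, 1519, and 1425 normalized counts in MB468 and 576, 526, and 580 in R8. The MB468 libraries remained above their Met+ libraries, with a log2 fold change of 0.29 (SE 0.0654, adjusted p = 0.00016, edgeR), although this was 0.05 (adjusted p = 0.757, edgeR) with spike-in totals, within a range of 0.05 to 0.33 over the alternatives. The R8 libraries were below every other library of either line, with a log2 fold change of -1.40 (SE 0.0716, adjusted p = 3.68e-19, edgeR), and this value stayed between -1.43 and -1.36 under all 16 alternatives. The response at 12 h differed between the lines by -1.69 (log2, SE 0.0970, adjusted p = 1.73e-17, edgeR), and by -1.72 to -1.44 over the 22 alternatives. This was 1 of 2 genes of the 5 called lower in R8 for the 12 h difference, when 56.5% of all genes were called in that comparison and 30.3% were lower.

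MTF1, the zinc sensor that acts on the other genes, was called changed over time in MB468 but at no time in R8, and the 12 h responses differed by the test given below. Its 3 Met+ libraries gave 1603, 1698, and 1849 normalized counts, and the 3 at 12 h gave 2725, 2629.7, and 2611. All libraries at 12 h were above all Met+ libraries, with a log2 fold change of 0.63 (SE 0.0504, adjusted p = 1.91e-14, edgeR) that lay between 0.40 and 0.66 over the alternatives. In R8, MTF1 read 1422, 1415, and 1514 normalized counts at 0 h and 1362, 1401, and 1441 at 12 h.

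These R8 groups overlapped, and the log2 fold change of -0.05 (95% interval -0.16 to 0.06, adjusted p = 0.453, edgeR) was not called. MTF1 was likewise not called in R8 at 0.5 h, with a log2 fold change of -0.03 and an interval of -0.14 to 0.08, or at 2 h, with 0.04 and an interval of -0.07 to 0.15. The 12 h responses of the lines differed by -0.68 (log2, SE 0.0736, adjusted p = 1.99e-10, edgeR). With spike-in totals as library sizes this difference was -0.42 (adjusted p = 0.0557, edgeR), the highest adjusted p of the 22 alternatives. At 2 h, MB468 libraries read 1848, 2155, and 1969 normalized counts of MTF1, with a log2 fold change of 0.21 (SE 0.0531, adjusted p = 0.00309, edgeR), and the lowest of them lay just below the highest Met+ library. This value was 0.16 (adjusted p = 0.0562) without replicate 2 at 2 h, the library rich in RN7SK, and 0.17 (adjusted p = 0.0505) without replicate 1 at 0 h, and it turned to -0.20 (adjusted p = 0.159) with spike-in totals, all by edgeR. Over the 16 alternatives its adjusted p was between 0.000684 and 0.159.

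**Figure D2:**
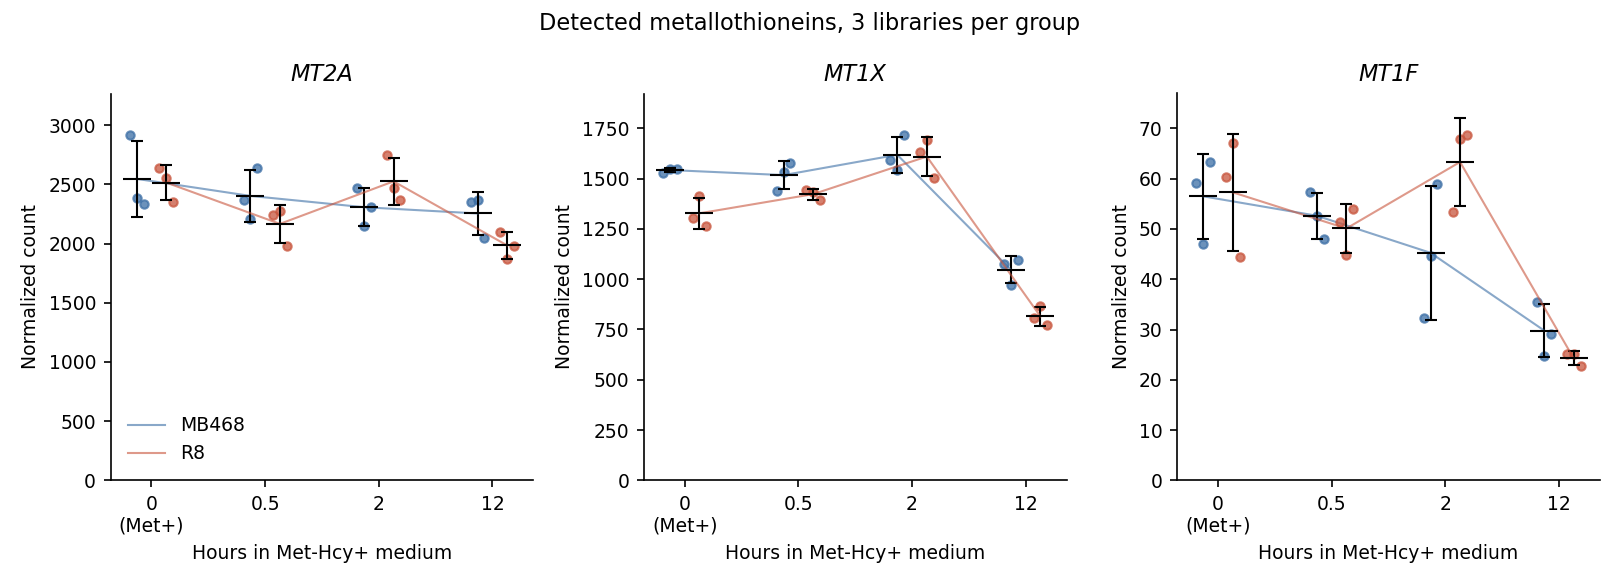
Normalized counts of MT2A, MT1X, and MT1F against hours in Met-Hcy+ medium, at evenly spaced positions, for MB468 (blue) and R8 (red). Points are libraries, black bars are the mean and SD of 3 libraries, and each panel has its own vertical axis from 0. The 12 h libraries of MT1X are the lowest of each line, the 12 h mean of MT1F is the lowest of each line, and the 2 h values of MT1X span 1502 to 1717 over both lines.

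Of the metallothioneins, MT2A, MT1X, and MT1F were detected in every library, and none was called higher in MB468 at any time by edgeR. The response at 12 h was downward in both lines for MT1X and MT1F. MT1X, a member of the MT1 group, gave 1529.9, 1548, and 1549 normalized counts in MB468 at 0 h and 1073, 969.7, and 1096 at 12 h.

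The groups were well apart, with a log2 fold change of -0.55 (SE 0.0554, adjusted p = 1.21e-11, edgeR). In R8, MT1X read 1305, 1413, and 1263 normalized counts at 0 h and 808, 864, and 770.3 at 12 h. These groups were also apart, with a log2 fold change of -0.71 (SE 0.0586, adjusted p = 1.49e-13, edgeR). The difference between the lines was -0.15 (log2, interval -0.32 to 0.01) and was not called (adjusted p = 0.104, edgeR). MT1X rose in R8 at 2 h, where the libraries read 1633, 1693, and 1502 normalized counts and all exceeded the Met+ libraries of R8 (log2 fold change 0.28, SE 0.0556, adjusted p = 0.000651, edgeR). In MB468 at 2 h its libraries read 1592, 1545, and 1717 normalized counts, overlapping the Met+ group (log2 fold change 0.07, interval -0.04 to 0.19, adjusted p = 0.456, edgeR). With spike-in totals this MB468 value became -0.35 (adjusted p = 0.0153, edgeR), and over the 16 alternatives the adjusted p was between 0.0153 and 0.874. The rise in R8 was 0.24 (log2) with the same scaling and was not called, at an adjusted p of 1 that was the highest of its 16 alternatives.

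MT1F had the lowest counts of the tested genes, between 22 and 105 reads per library. Its normalized counts in MB468 were 59.2, 47.0, and 63.2 at 0 h and 35.4, 24.8, and 29.1 at 12 h. In R8 they were 60.3, 67.1, and 44.5 at 0 h and 25.0, 25.1, and 22.7 at 12 h. The 12 h libraries lay below the Met+ libraries in each line, with log2 fold changes of -0.88 in MB468 (SE 0.216, adjusted p = 0.000404) and -1.25 in R8 (SE 0.231, adjusted p = 1.19e-05), both by edgeR. The difference between these responses was -0.36 (log2) with a wide interval of -1.01 to 0.28 and was not called (adjusted p = 0.344, edgeR).

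MT2A, the metallothionein with the most RNA, had the smallest 12 h fold changes of the 3 detected. It read 2917, 2386, and 2336 normalized counts in MB468 at 0 h and 2352.5, 2365, and 2043 at 12 h, and these groups overlapped. Its log2 fold change of -0.18 (interval -0.37 to 0.01) in MB468 at 12 h was not called (adjusted p = 0.0808, edgeR), but it was called with at least 10 counts in every library (adjusted p = 0.0456), with the replicate number as a block (adjusted p = 0.0173), with no filter on low counts (adjusted p = 0.000446), and with spike-in totals (adjusted p = 0.00363), and the adjusted p over the 16 alternatives reached 0.447.

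In R8, MT2A read 2639, 2557, and 2348 normalized counts at 0 h and 2101, 1871, and 1979.5 at 12 h. No 12 h library reached the Met+ range, and the log2 fold change was -0.34 (SE 0.0922, adjusted p = 0.00338, edgeR). At 0.5 h in R8 it read 2242, 2273, and 1983 normalized counts, also below all Met+ libraries, but its log2 fold change of -0.22 (interval -0.41 to -0.02) was not called (adjusted p = 0.0814, edgeR). This early value was called with a replicate block (adjusted p = 0.0128), in a fit to the groups compared (adjusted p = 0.00253), and with no filter (adjusted p = 0.000169), all by edgeR, and the adjusted p reached 0.518 over the 15 alternatives. At 2 h the MT2A libraries read 2465, 2145, and 2310.01 normalized counts in MB468 and 2745, 2465, and 2365 in R8, overlapping Met+ in both lines. In MB468 at 2 h the log2 fold changes of MT2A and MT1F were -0.14 and -0.30 and not called (adjusted p = 0.373 and 0.438, edgeR). With spike-in totals they were -0.57 and -0.74 and both were called (adjusted p = 0.000173 and 0.0144, the lowest of their 16 alternatives each, edgeR).

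**Figure D3:**
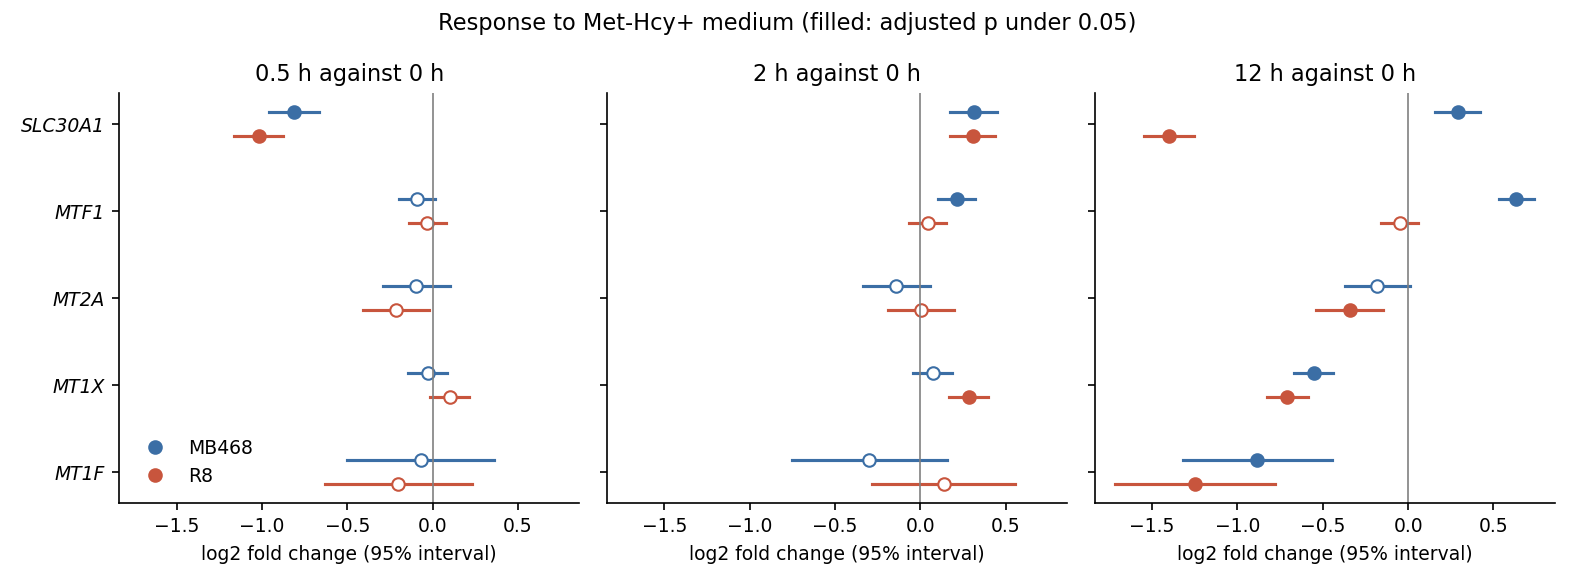
Log2 fold change of the 5 tested genes at 0.5, 2, and 12 h against 0 h in MB468 (blue) and R8 (red). Horizontal lines are 95% intervals derived from edgeR's F statistic. Filled points were called at an adjusted p under 0.05. SLC30A1 moved together in the lines at 0.5 and 2 h and apart at 12 h (0.29 in MB468 and -1.40 in R8), while MT1X and MT1F lay below 0 in both lines at 12 h.

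The other metallothioneins were near or at 0. MT1M had 0 counts in all 24 libraries, MT1E had 2 counts in all, 1 in each of 2 libraries, and MT1G had 9 counts spread over 6 libraries. All 9 MT1G counts came from libraries at 2 or 12 h, with 4 in MB468 at 12 h, 2 in R8 at 2 h, and 3 in 1 library of R8 at 12 h. A count of 0 allows up to 3 counts, which is 0.0806 to 0.256 CPM depending on the library, and counting error is the only error this limit covers. No fold change is given for these genes. Of 12 further metallothionein genes and pseudogenes, 9 had an entry, none had more than 4 counts in all libraries together, and none was tested.

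Summed over the set, metallothionein RNA was 4145 ± 313 normalized counts (SD, n = 3) in MB468 at 0 h and 3331 ± 148 at 12 h. In R8 it was 3899 ± 211 at 0 h and 2823 ± 96.5 at 12 h. At 0.5 and 2 h the sums were 3972 ± 252 and 3970 ± 204 in MB468 and 3638 ± 182 and 4199 ± 250 in R8, so the lowest sum of each line was that at 12 h. MT2A supplied 61.3% ± 3.02 (SD, n = 3) of the sum in MB468 at 0 h and 67.6% ± 2.98 at 12 h, and 64.5% ± 1.30 in R8 at 0 h and 70.2% ± 2.13 at 12 h.

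**Figure D4:**
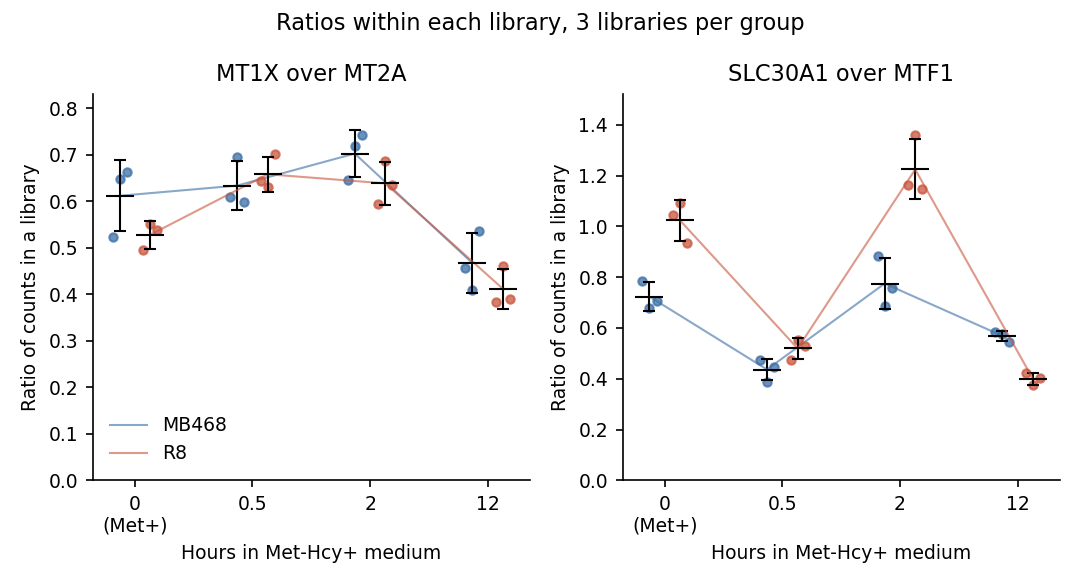
Ratio of MT1X to MT2A counts (left) and of SLC30A1 to MTF1 counts (right) in each library against hours in Met-Hcy+ medium, at evenly spaced positions, for MB468 (blue) and R8 (red). Black bars are the mean and SD of 3 libraries. Such ratios do not depend on library size, and that of SLC30A1 to MTF1 was lowest in R8 at 12 h (0.376 to 0.423).

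Ratios of 2 genes within a library do not depend on how libraries are scaled. MT1X over MT2A fell from 0.612 ± 0.0763 at 0 h to 0.467 ± 0.0640 at 12 h in MB468, where the groups overlapped at 0.524 to 0.663 and 0.410 to 0.536. In R8 it went from 0.528 ± 0.0301 to 0.412 ± 0.0434, with no overlap (0.495 to 0.552 and 0.385 to 0.462). SLC30A1 over MTF1 was 0.723 ± 0.0558 in MB468 and 1.02 ± 0.0797 in R8 at 0 h, with no overlap between the lines.

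It dropped to 0.436 ± 0.0431 in MB468 and 0.519 ± 0.0396 in R8 at 0.5 h, and returned to 0.775 ± 0.0989 and 1.22 ± 0.118 at 2 h. At 12 h the ratio was 0.569 ± 0.0203 in MB468, below the Met+ libraries of that line, and 0.400 ± 0.0237 in R8, the lowest group mean. MB468 therefore held less SLC30A1 per MTF1 read at 12 h than at 0 h although SLC30A1 was called higher.

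Levels of different genes can be compared only per length of transcript. In MB468 at 0 h the means were 6349 normalized counts per kb for MT2A, 3817 for MT1X, 216 for MTF1, 210.2 for SLC30A1, and 133 for MT1F, using the canonical GENCODE transcripts of 401, 404, 7937, 5893, and 425 bases. In R8 at 0 h they were 6272, 3285, 183, 251, and 135 normalized counts per kb in the same order of genes. The genes with most RNA per length were thus the same in both lines, and at 0 h SLC30A1 was above MTF1 per kb in R8 but not in MB468.

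Among the 8 groups, mean normalized counts of SLC30A1 were highest in R8 at 2 h, then MB468 at 2 h, MB468 at 12 h, R8 at 0 h, MB468 at 0 h, R8 at 0.5 h, MB468 at 0.5 h, and R8 at 12 h. Neighbours in this order overlapped between MB468 at 2 h, MB468 at 12 h, and R8 at 0 h, and between the lines at 0.5 h, and all other neighbours were separate. For MTF1 the order was MB468 at 12, 2, 0, and 0.5 h and then R8 at 2, 0, 0.5, and 12 h. The libraries of MB468 at 12 h stood clear above the rest, the 2 h and 0 h groups and the 0 h and 0.5 h groups of MB468 overlapped, and all 4 R8 groups lay below all 4 MB468 groups. For MT1X only MB468 at 12 h and R8 at 12 h, the last in order, were separate from their neighbours, and for MT2A and MT1F every neighbouring pair overlapped.

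The lines were then compared at the same time. At 0 h, 3 of the 5 tested genes were called, when 53.5% of all genes were called, 26.4% higher and 27.1% lower. SLC30A1 was higher in R8, with a log2 difference of 0.26 (SE 0.0666, adjusted p = 0.000997, edgeR), while MTF1 was lower at -0.24 (SE 0.0530, adjusted p = 0.000185) and MT1X at -0.22 (SE 0.0558, adjusted p = 0.00115). Spike-in totals moved the median gene of this comparison by -0.31 (log2), and SLC30A1 then read -0.05 (adjusted p = 0.759, edgeR, with 6.18e-05 the lowest of its 16 alternatives), so that 0 genes were called higher and 3 lower.

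At 0.5 h, 1 gene was called, MTF1 at -0.18 (SE 0.0540, adjusted p = 0.00516, edgeR), when 49% of all genes were called and 24.8% were lower. With spike-in totals MTF1 was -0.22 and not called (adjusted p = 0.217, the highest of its 15 alternatives, edgeR). At 2 h, when 56.1% of all genes were called, 27.4% higher and 28.7% lower, MTF1 was lower in R8 at -0.41 and SLC30A1 higher at 0.26 (log2, adjusted p = 1.76e-08 and 0.00118, edgeR). At 12 h, 3 genes were lower in R8, when 73.1% of all genes were called and 39.2% were lower. SLC30A1 had a log2 difference of -1.43 (SE 0.0704, adjusted p = 2.58e-20), MTF1 of -0.92 (SE 0.0511, adjusted p = 1.85e-19), and MT1X of -0.37 (SE 0.0582, adjusted p = 4.2e-07), all by edgeR. MT2A, at -0.18 (log2, interval -0.37 to 0.01, adjusted p = 0.0842), and MT1F, at -0.32 (interval -0.80 to 0.16, adjusted p = 0.229), were not called by edgeR. When the 0.5 h responses of R8 and MB468 were compared with each other, 0 of the 5 genes were called by edgeR or DESeq2, 1 had an unadjusted p under 0.05, and 2.9% of all genes were called. For the 2 h responses, 0 genes were called by either tool, 2 had an unadjusted p under 0.05, and 5.07% of all genes were called.

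**Figure D5:**
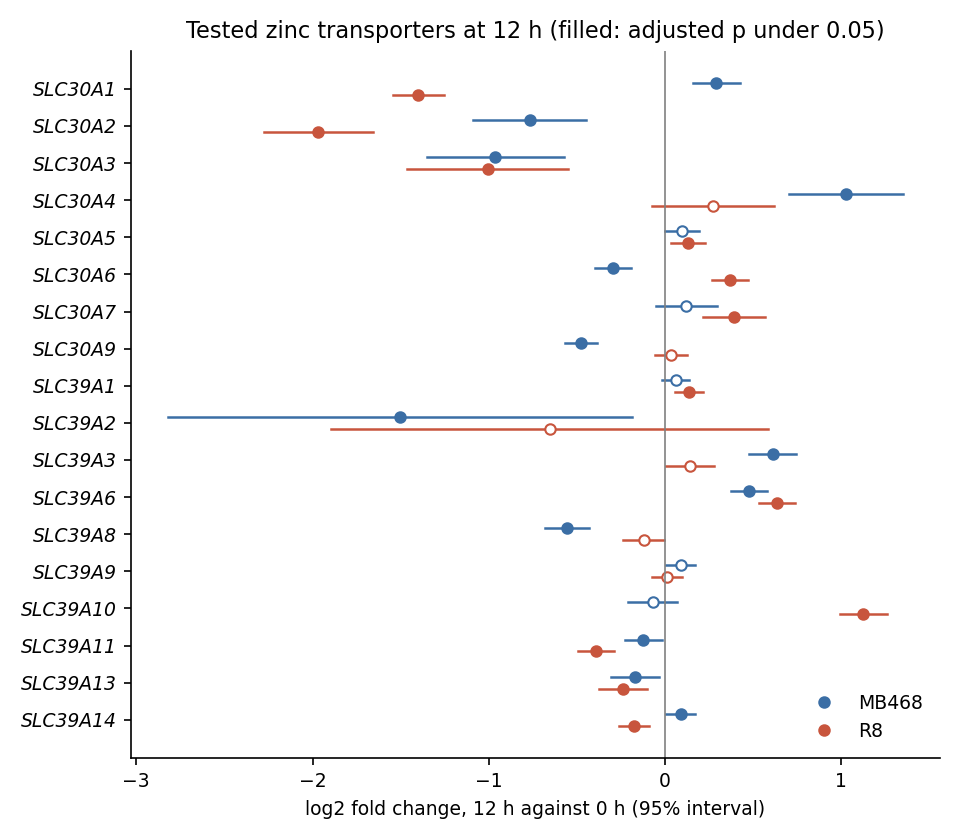
Log2 fold change at 12 h against 0 h of the tested zinc exporters (SLC30 genes) and importers (SLC39 genes) in MB468 (blue) and R8 (red). Horizontal lines are 95% intervals derived from edgeR's F statistic. Filled points were called at an adjusted p under 0.05. SLC30A1 and SLC39A10 are far apart between the lines, in opposite directions, with R8 at -1.40 and 1.13. SLC30A2 fell in both lines, and its responses differed by -1.20 (log2, R8 minus MB468).

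Other zinc transporters gave a mixed picture at 12 h, when 70.8% of all genes were called in MB468 and 61.3% in R8. Of 10 further exporter genes, 7 were tested, and 1 was higher and 4 lower in MB468 against 3 higher and 2 lower in R8, with medians of -0.29 and 0.13 (log2) where the median of all genes was 0.01 and -0.02. SLC30A2, which loads zinc into vesicles, fell in MB468 from a mean of 75.9 normalized counts to 43.96 (log2 fold change -0.77, adjusted p = 4.03e-05) and in R8 from 173 to 44.1 (-1.97, adjusted p = 2.39e-14), by edgeR, and the responses differed by -1.20 (log2, SE 0.221, adjusted p = 1.25e-05). SLC30A3 fell in both lines, by 0.96 on the log2 scale in MB468 and by 1.005 in R8 (adjusted p = 2.54e-05 and 0.000191, edgeR). The exporter called higher in MB468 was SLC30A4, from a mean of 84.2 normalized counts to 172.5 (log2 fold change 1.03, adjusted p = 3.59e-07, edgeR). In R8 its mean was 84.0 at 0 h and 101 at 12 h.

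Of 14 importer genes, 10 were tested, and 3 were higher and 4 lower in MB468 against 3 higher and 3 lower in R8. SLC39A10 (ZIP10), an importer of the plasma membrane reported to be repressed by MTF1, rose in R8 at 12 h, from 740 to 1615 mean normalized counts (log2 fold change 1.13, SE 0.0653, adjusted p = 3.29e-18, edgeR). In MB468 it was 639 at 0 h and 612 at 12 h (log2 fold change -0.07, adjusted p = 0.37, edgeR), and the responses differed by 1.19 (log2, SE 0.0944, adjusted p = 5.15e-14, edgeR). At 0.5 h SLC39A10 was higher in both lines, with log2 fold changes of 0.36 in MB468 and 0.24 in R8 (adjusted p = 4.55e-05 and 0.00402, edgeR), although with spike-in totals these were 0.15 and 0.29 and neither was called. SLC39A6 rose in both lines at 12 h, by log2 fold changes of 0.47 and 0.64 (adjusted p = 5.51e-11 and 6.7e-14, edgeR), the former 0.24 and not called with spike-in totals. Both classes held genes called in each direction in R8 at 12 h. The exporters SLC30A5, SLC30A6, and SLC30A7 were called higher (log2 fold changes 0.13, 0.37, and 0.39) and the importers SLC39A11, SLC39A13, and SLC39A14 lower (-0.39, -0.24, and -0.18), with adjusted p of at most 0.0194 by edgeR. With spike-in totals SLC30A5, SLC39A13, and SLC39A14 were not called.

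Of 5 symbols reported as further targets of MTF1, 4 were tested. At 0.5 h 33.9% of all genes were called in MB468 and 33.7% in R8. Of the 4 targets, 1 was higher and 2 lower at that time in each line. The higher one was SLC39A10, described above as reported to be repressed by MTF1. CSRP1, which encodes a LIM protein, fell from a mean of 12041 normalized counts to 6096 in MB468, and in R8 from 10818 to 5348, with log2 fold changes of -0.98 and -1.02 (adjusted p = 1.11e-21 and 4.36e-22, edgeR). NDRG1, the other gene called lower, had log2 fold changes of -0.29 in MB468 and -1.51 in R8 (adjusted p = 2.43e-05 and 1.38e-22, edgeR). At 2 h, 1 of these 4 targets was higher and 0 lower in MB468, and 0 were called in R8. Of all genes, 16.3% were called at 2 h in MB468 and 4.37% in R8. At 12 h, 0 of these targets were higher and 2 lower in MB468, and 2 were higher and 2 lower in R8. Of 11 metal and thiol stress genes, 4 were higher at 12 h and 6 lower in MB468, and 2 were higher and 6 lower in R8. At that time 70.8% of all genes were called in MB468 and 61.3% in R8. HMOX1, the heme oxygenase induced by metals and oxidants, went in MB468 from a mean of 2531 normalized counts to 852 and in R8 from 1329.6 to 373 (log2 fold changes -1.57 and -1.83, adjusted p = 7.6e-12 and 1.68e-11, edgeR). SLC7A11, the cystine importer, fell by 0.72 on the log2 scale in MB468 and by 1.40 in R8 (adjusted p = 1.81e-05 and 1.93e-08, edgeR). The difference between these responses was -0.68 (adjusted p = 0.0019) and, with spike-in totals, -0.41 (adjusted p = 0.0673, the highest of its 9 alternatives, edgeR). At 0.5 h, 1 of these 11 genes was higher and 3 lower in MB468, and 3 were higher and 4 lower in R8. TXNRD1, a thioredoxin reductase, had log2 fold changes of -0.58 in MB468 and -0.36 in R8 (adjusted p = 1.77e-13 and 1.91e-08, edgeR). DNAJB1, a heat shock co-chaperone, was higher, at 0.50 in MB468 and 0.57 in R8 (log2, adjusted p = 8.07e-12 and 2.59e-13, edgeR). With spike-in totals TXNRD1 was -0.32 in R8 and DNAJB1 0.29 in MB468, and neither was called. Of the 4 genes called higher in MB468 at 12 h, DNAJB1 and SRXN1 rose most. Their log2 fold changes were 0.53 and 0.29 (adjusted p = 2.02e-13 and 8.95e-06, edgeR). In R8 the mean of DNAJB1 went from 7254 to 5779 normalized counts and that of SRXN1 from 2308 to 2289.

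Metallothionein genes are also known to respond to glucocorticoids, and targets of that pathway were counted beside them. At 0.5 h, 33.9% of all genes were called in MB468 and 33.7% in R8. Of 7 tested glucocorticoid targets, 4 were then higher and 0 lower in MB468, and 4 higher and 1 lower in R8. The lower one was PER1, at -1.20 (log2, adjusted p = 1.07e-05, edgeR), which was -0.39 in MB468 and not called (adjusted p = 0.118, edgeR). SGK1 rose in MB468 from a mean of 1298 normalized counts to 4092 and in R8 from 1706 to 6317, and TSC22D3 from 1569 to 3033 and from 1276 to 2649.96, with log2 fold changes of 1.66 and 1.89 for SGK1 and 0.95 and 1.06 for TSC22D3 (adjusted p at most 6.93e-10, edgeR). At 2 h, 5 of these 7 genes were higher and 1 lower in MB468, and 4 were higher and 0 lower in R8. Of all genes, 16.3% were called at 2 h in MB468 (8.88% higher) and 4.37% in R8 (2.52% higher). PER1 was higher by log2 fold changes of 1.49 in MB468 and 0.77 in R8 (adjusted p = 2.83e-06 and 0.00309, edgeR). Its rise in R8 was not called in a fit to the groups compared. SGK1 was higher by 1.34 in MB468 (log2, adjusted p = 3.12e-09, edgeR). The gene called lower in MB468 was FKBP5 (-0.17, adjusted p = 0.00879, edgeR). At 12 h, 5 of these 7 genes were lower and 1 higher in each line. Of all genes, 70.8% were called at 12 h in MB468 and 61.3% in R8.

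Genes of copper and iron handling were counted at 12 h, when 70.8% of all genes were called in MB468 and 61.3% in R8. For copper, 4 of 13 genes were higher and 5 lower at 12 h in MB468 and 3 higher and 4 lower in R8. For iron, 3 of 13 were higher and 8 lower in MB468 and 3 higher and 5 lower in R8. TFRC, the transferrin receptor, fell in MB468 from 16850.0 to 6180 mean normalized counts (log2 fold change -1.45, adjusted p = 2.11e-29, edgeR). In R8 it was 21553 at 0 h and 21851 at 12 h (log2 fold change 0.02, adjusted p = 0.68, edgeR), and the responses differed by 1.47 (log2, SE 0.0547, adjusted p = 6.78e-24, edgeR). The difference between the lines at 12 h was thus negative for SLC30A1 and positive for TFRC and SLC39A10.

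The genes whose log2 CPM followed each pattern most closely over the 24 libraries were listed by Pearson's r, as a description of libraries that share lines and times. For SLC30A1, among 9874 genes, they were CD55 (r = 0.969), HIVEP1 (0.962), SGMS2 (0.955), LIPH (0.954), and NFKB2 (0.949). For MTF1 they were ZFP30 (r = 0.9749), OSER1 (0.973), EPC2 (0.970), ZNF829 (0.970), and ZFR (0.968). For the summed metallothioneins, among 9873 genes, they were CC2D1A (r = 0.930), SGSM3 (0.930), MROH1 (0.922), CNP (0.914), and RHBDF1 (0.912). Between members, r was 0.84 for MT1X with MT1F, 0.58 for MT1X with MT2A, and 0.44 for SLC30A1 with MTF1, and that of MTF1 with MT2A was -0.03.

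Metallothionein genes are similar in sequence, and reads that fit several copies could be split or dropped in counting. In the canonical transcripts, identical stretches shared by any pair of the 6 genes were at most 96 bases long, shorter than a read of 100 bases. Only exact matches in the direction of transcription were searched, so the assignment of reads that align with mismatches was not tested. Of the 305 windows of 100 bases in MT1X, 67 (22%) also occurred in the overlapping non-coding gene ENSG00000259827, and the other 7 genes shared none with another gene. A processed pseudogene on the opposite strand overlaps the span of MTF1, and whether it overlaps an exon was not tested. The effect of the overlap with ENSG00000259827 on the values of MT1X was not tested.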

How the data were processed

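RNA was measured in 24 libraries, 3 per line and time, grouped by their titles. The authors aligned single-end reads of 100 bases from poly(A) RNA with HISAT2 2.1.0 to GRCh38/hg38 joined with spike-in sequences, and counted reads per gene with featureCounts (Subread 1.5.3, from the submitters' processing notes). The deposited count table holds raw counts without normalization. A second deposited table gives, as signal, what the authors obtained after DESeq2 size factor scaling in 18 libraries without 0.5 h, and was used only for ratios of means. A deposited table of the authors' DESeq2 comparison (fold changes, errors, and p) was not used. Annotation, strand, and multi-mapping settings are not given in the sources used here.

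Software versions were edgeR 4.0.16, DESeq2 1.42.0, and limma 3.58.1, run under R 4.3.3. After removal of 92 spike-ins, 14741 genes passed filterByExpr with a minimum count of 10 and a minimum total of 15, libraries were scaled by TMM, and 1 quasi-likelihood fit with a mean per group gave every comparison, with Benjamini-Hochberg adjustment over all genes. Differences between lines in a response are contrasts of that fit. Each SE was derived as the absolute log2 fold change divided by the square root of edgeR's F statistic. Intervals are at 95%, from this SE and a t quantile, and CPM used a prior count of 2. The 8 members are always named, and of each further gene list at most 2 called genes per direction and comparison, by size of change, plus defining genes. The 5 pattern neighbours are by Pearson's r among genes whose log2 CPM averaged at least 3. Members and lists were chosen with earlier results of these data known. Gene positions and lengths come from GENCODE on GRCh38.

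The code was tested on simulated data for MB468 at 12 h (14484 genes, 200 changed): 100% of genes changed 2-fold and 78% of those changed 1.41-fold were called, and 3.78% of calls were unchanged genes. Replicate numbers were not taken to pair libraries (mean correlation of deviations -0.02 for equal numbers and 0.01 for others over 6391 genes). By comparison, the mean for equal numbers ran from -0.15 in R8 at 12 h to 0.28 in R8 at 2 h, each against 0 h. No 2 libraries of a group agreed within counting noise, with chi-square per gene of at least 2.28. Alternatives were library sizes from spike-in totals, scaling by DESeq2's size factors, a covariate from the spike-ins, no filter, a floor of 10 counts per library, the Wald test of DESeq2, a replicate block, fits to the groups compared, an adjusted p under 0.01, and leaving out each library.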

Additional observations from a re-analysis of the deposited data

Results flagged for a closer look

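The response at 12 h differed between R8 and MB468 by edgeR's test of the difference itself for 2 of the genes described, SLC30A1 (-1.69 on the log2 scale, adjusted p = 1.73e-17) and MTF1 (-0.68, adjusted p = 1.99e-10). With spike-in totals the MTF1 difference was -0.42 and not called (adjusted p = 0.0557, edgeR). Among the other genes named for that comparison, SLC30A2 differed by -1.20 (adjusted p = 1.25e-05), SLC39A10 by 1.19 (adjusted p = 5.15e-14), SLC7A11 by -0.68 (adjusted p = 0.0019, and not called with spike-in totals), and TFRC by 1.47 (adjusted p = 6.78e-24). In this comparison 56.5% of all genes were called. With TMM scaling SLC30A1 moved in opposite directions in the lines, higher in all 3 MB468 libraries at 12 h than in any of that line at 0 h, and lower in all 3 R8 libraries. With spike-in totals the MB468 change was 0.05 (log2) and not called (adjusted p = 0.757, edgeR).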

How the results depend on the processing

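Fold changes of the 5 tested genes were recomputed 1110 times under the alternatives, and 1071 kept their direction and their side of the threshold (or stayed uncalled), 8 lost the call, 24 gained one, 4 turned, and 3 moved as ratios of the deposited normalized counts. Of 653 that were uncalled in both, 32 had another sign. The 4 that turned did so with spike-in totals as library sizes, in MB468 at 2 h for MT1X (-0.35), MTF1 (-0.20), and SLC30A1 (-0.11), and for SLC30A1 in R8 against MB468 at 0 h (-0.053), and this scaling moves the median gene by -0.42 and -0.31 in these comparisons. The number of genes called was within 1.5 times of that reported in 202 of 213 cases. This compares numbers only, not which genes were called or their direction. MB468 at 2 h is among the 202 with spike-in totals, although 2 higher and 0 lower became 0 higher and 3 lower. R8 against MB468 at 0 h is too, although 1 higher and 2 lower became 0 higher and 3 lower. With spike-in totals the number became 0 for R8 at 2 h, 0 for R8 against MB468 at 0.5 h, and 1 for the line difference at 2 and at 12 h. It became 2 for R8 at 0.5 h with no filter, with the replicate block, and in a fit to the groups compared, and 2 for R8 against MB468 at 0.5 h with no filter, MT2A being the added gene. Leaving out 1 library gave 1 to 2 genes in MB468 at 2 h and 1 to 2 in R8 at 2 h. Without replicate 1 at 0 h or replicate 2 at 2 h MTF1 was lost in MB468, and without replicate 2 at 2 h SLC30A1 was lost in R8. The causes were not tested. With the replicate block, MT2A was called in R8 at 0.5 h (-0.22), in MB468 at 12 h (-0.18), and in R8 against MB468 at 12 h (-0.18), and no other gene of the 5 changed its call. Of 378 fold changes of other named genes, 367 were unchanged in direction and call and 11 lost the call. The 12 h values of SLC30A4, DNAJB1, and SRXN1 were not among these. Depth limits MT1E, MT1G, and MT1M, which could not be tested, and MT1F, whose 22 to 105 reads leave wide intervals.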
